A study of Homo sapiens with 6 samples.

Results

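BDNF, its antisense gene BDNF-AS and the receptor genes NTRK2 and NTRK3 were examined in the merged transcript models of a human beta cell line. They were taken from the deposited assembly by gene name, as every model whose name tag equalled one of the 4, which gave 4 of 25211 gene names and 42 of 55083 models. The models come from EndoC-βH1, a line of human pancreatic beta cells, transduced by lentivirus with a construct for a short hairpin RNA against the promoter of INS, the insulin gene. The INS-KD group had 3 libraries from cells given 1 mg/mL doxycycline over 7 days to switch the hairpin on, and the Negative Control group had 3 libraries from the same transduced cells with no doxycycline. No group received doxycycline without the hairpin, so the hairpin and the drug cannot be told apart in this design. The labels do not say whether the 3 libraries of a group came from separate cultures.

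Neurotrophins are secreted growth factors that bind receptor tyrosine kinases of the Trk family and, with their precursors, the receptors p75 and sortilin. BDNF encodes the ligand of TrkB, the product of NTRK2, and NTRK3 encodes TrkC, the receptor of neurotrophin 3. BDNF is known for many promoters, each with its own 5′ exon, that are spliced to a common exon holding the protein, and NTRK2 for truncated receptors without the kinase, of which TrkB.T1 has been linked to insulin secretion in beta cells.

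The merged file holds exon positions and no abundance: 0 of its 555595 exon lines carried a score. A model whose intron chain is that of a RefSeq transcript (RefSeq model) is therefore no measure of expression. A model of class j (joined model) has splice junctions in a chain that is not the whole chain of any RefSeq model. The level of each gene in each library, the spread between replicates, the difference between INS-KD and Negative Control and the identity of the cells by their markers were not analysed here, and no statistical test was run. Of the 42 models, 32 were RefSeq models and 10 were joined. Each of the 4 genes had at least 1 joined model, against 12.4% of the 21490 gene names with a multi-exon RefSeq model. The 4 genes had 4 to 17 RefSeq models each, whereas the median gene name had 1 model of any class. The 12.4% is therefore not a share over genes with as many models. Every intron of the 10 joined models was also an intron of a RefSeq model in the file, so none had a junction of its own. The chains of the joined BDNF model and of the joined BDNF-AS model with 6 exons each lay within a single RefSeq chain. The other joined models put together junctions of different RefSeq models.

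BDNF, the ligand gene, lay on the minus strand of chromosome 11 from 27676442 to 27743605 (hg19, as are all positions here), a span of 67164 bases. It had 18 models, 17 of them RefSeq models and 1 joined. They fell into 9 start site groups, the sets of models that the file gives a common transcription start tag (tss_id), and all ended in the same last exon. Start groups are named here by the usual Roman numerals of the BDNF exons, counted along the gene: I, II, III, IV, V, Vh, VI, VII and IX. The group named IX starts at 27681196, upstream of the common limits of exon IX given next. Exon IX, the last, covered 27676442 to 27680132 (3691 bases) with identical limits in 16 of 18 models. The other two reached further upstream into the adjoining sequence. All 18 models held the whole reading frame of the BDNF precursor in it, 744 bases with the stop codon or 247 codons. The start codon began at 27680111, 21 bases into exon IX, and the frame ended at 27679368, with 2926 bases of the exon following it.

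The junction into exon IX is the point on which 16 of the 17 spliced BDNF models converge. The exon I donor directly follows a start codon that this first exon brings. Both are printed from GRCh37 on the minus strand, chr11:27680109-27680138 for the acceptor, with the intron's final AG and the start codon in capitals, and chr11:27742951-27742974 for the donor, with the final codon of exon I in capitals.
exon IX acceptor and start codon: ctacAGttccaccaggtgagaagagtgATG
exon I donor: cagcaaaggcacaATGgtgagtag

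In all, 15 splice donors were joined to that acceptor, and the file held 18 distinct BDNF introns, the longest of 62826 bases. The farthest first exon was exon I, of 647 bases from 27742959 to 27743605, 62826 bases from exon IX. Exon II started at 27742326 and had 3 donors, which gave first exons of 136, 351 and 434 bases. Exon III had 237 bases and lay 60925 bases from exon IX. Most other first exons sat close together: exon IV (337 bases) was 42711 bases away, exon V 42385 or 42395, exon Vh (225 bases) 42090, exon VI 41578 or 41596, and exon VII (286 bases) 40796. The model starting closest to the frame had a first exon of 830 bases from 27681196, separated from exon IX by an intron of 234 bases, and a model with the same start held the interval unspliced in a single exon of 4755 bases. Exon VIII (283 bases) and exon VIIIh (117 bases) were found inside models starting at exon V.

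**Figure D1:**
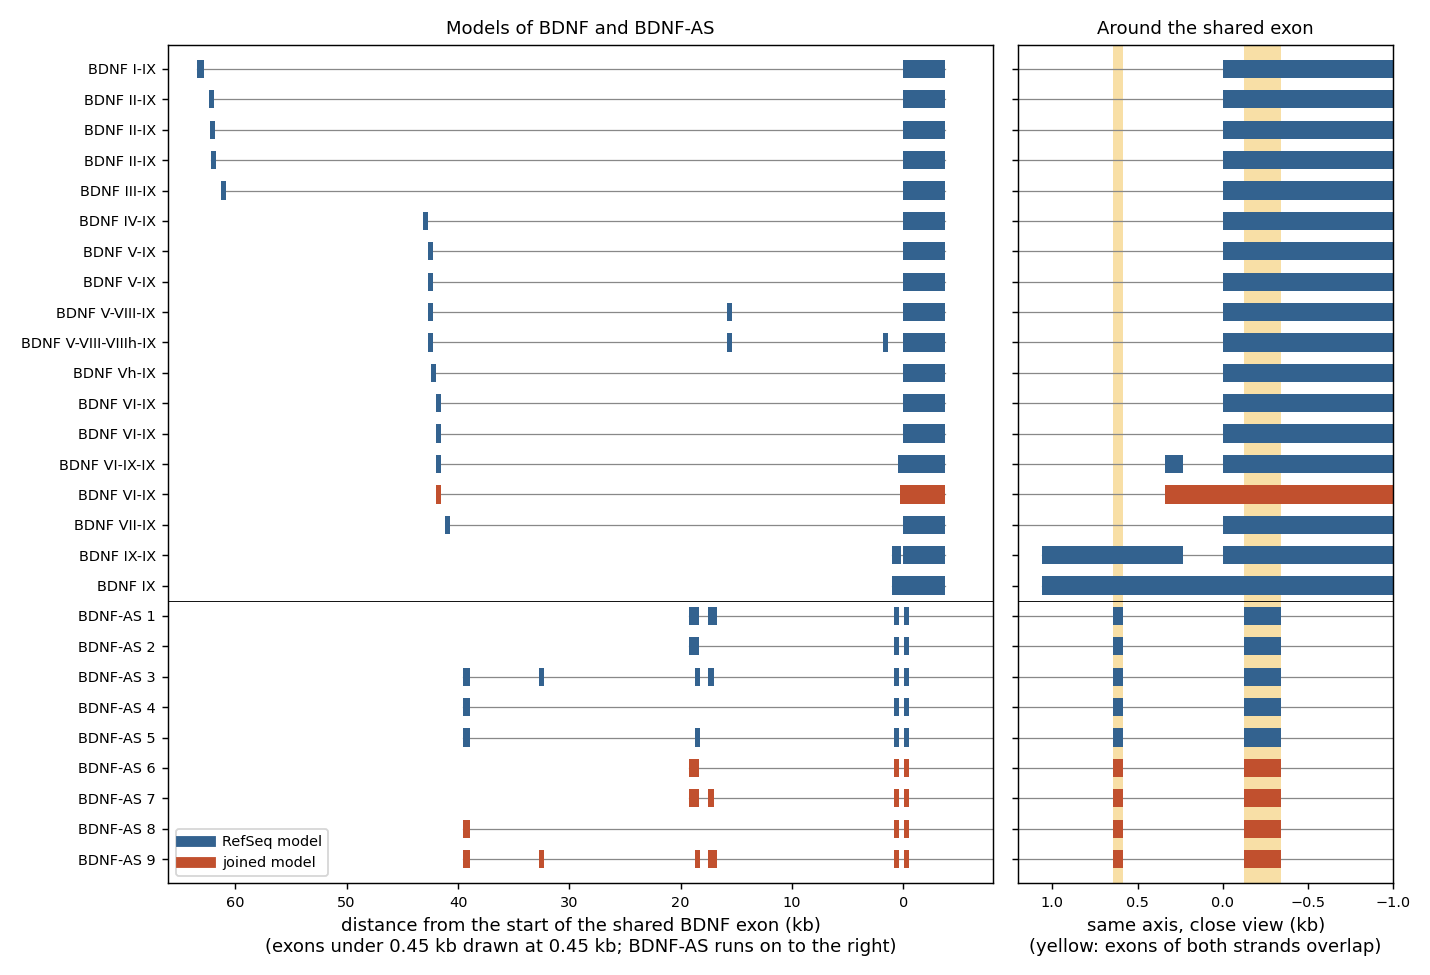
Exons of the 18 BDNF models and 9 BDNF-AS models, as distance in kb from the start of the shared BDNF exon, with a close view at right. Blue models are RefSeq models, red ones joined, and yellow marks exon sequence present on both strands. BDNF first exons lie in separate clusters, the farthest with exons I to III and the next with IV to VII, and all models run to the shared exon.

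Because the first exons are short and exon IX is long, the 18 models were alike over most of their length. They had 3764 to 4755 spliced bases, of which 77.6% to 98.1% lay in the 3691 shared bases. The model with the smallest part of its own was exon V with its shorter donor (73 bases, 98.1% shared). The unspliced model from 27681196 had the largest (77.6%). The stretch before the start codon of the shared frame varied from 94 to 1085 bases.

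The first exon, its donor or an added inner exon lengthened the predicted protein in 4 of the 18 models. The longest frame from ATG to stop had 247 codons in 14 models, all read from the start codon in exon IX. It had 255 codons in the exon I model, whose first exon ends in an ATG followed in frame by the 21 open bases of exon IX, which adds 8 codons at the amino end. The exon VII model had 262 codons, 15 more. The exon V model with the longer donor had 276 codons, 29 more, and the model joining exon V to exons VIII and IX had 329 codons, 82 more. The RefSeq models carried 5 protein tags (p_id), and these matched the 5 frame lengths: all 13 RefSeq models with 247 codons had the same tag, and each longer frame had its own. Over the file, 8.11% of the 19135 gene names with a protein tag had at least 4.

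**Figure D2:**
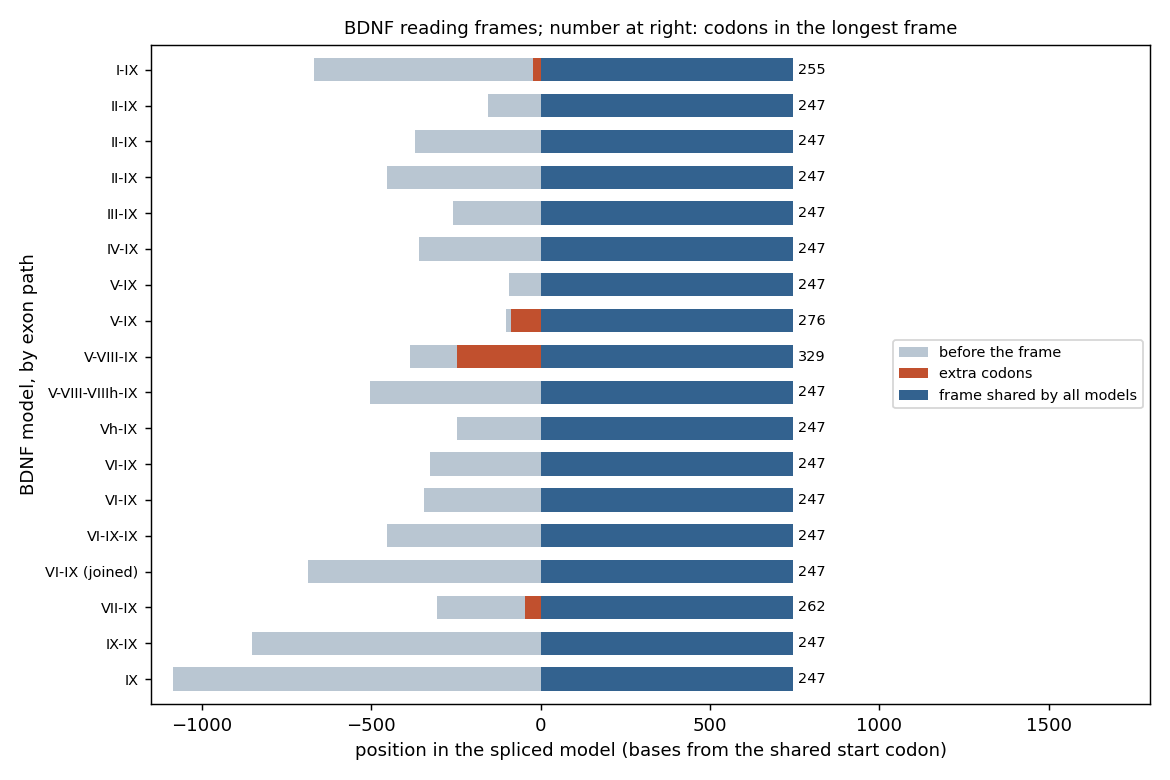
Each BDNF model drawn as spliced sequence around the shared start codon at 0 bases, with the shared frame in blue, extra codons in frame with it in red and the sequence before the frame in grey. The number at right is the length of the longest frame in codons: 14 models have 247, and those with red have 255, 262, 276 and 329.

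The exon V group shows how close some of these choices lie. Its models had 2 donors only 10 bases apart, after 73 and 83 bases. At chr11:27722510-27722537, minus strand, the bases kept by the longer exon are in capitals. Exon VI likewise had 2 donors, after 307 and 325 bases, shown the same way at chr11:27721705-27721734.
exon V donors: gtgcaggaagGTGCGGGAAGgtgtgtct
exon VI donors: cgtgagGTTTGTGTGGACCCCGAGgtaggc

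The 10 bases between the exon V donors are no multiple of a codon, and with them the reading frame upstream of exon IX switched. With the 73-base exon, 10 open codons lay between an upstream stop codon and the shared start codon, and the frame had 247 codons. With the 83-base exon, the frame was open for 34 codons to the start of the model and held an upstream ATG, giving 276 codons. GENCODE release 44, which has a transcript of the same chain, annotates 247 codons for it. The 18 bases between the exon VI donors are whole codons. Both forms had 247 codons, with 103 or 109 open codons before the start codon and no ATG among them. When exon VIIIh, of 117 bases, was added after exon VIII, the frame of 329 codons fell to 247. For that chain GENCODE annotates a coding sequence of 77 codons and the class nonsense-mediated decay, the pathway that removes messages with an early stop.

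The single joined BDNF model began with the 325-base form of exon VI and spliced to 27680473, upstream of the usual acceptor. Its last exon had 4032 bases and retained the interval from 27680133 to 27680366, 234 bases, that 2 RefSeq models remove as an intron and 2 models, the joined one and the unspliced RefSeq model, contain. It had 4357 spliced bases, 687 before the start codon, and the unaltered frame of 247 codons. Its nearest RefSeq model has the 107-base piece of the same region as a separate exon. The joined chain was not among the GENCODE transcripts, whereas 15 of the 16 spliced RefSeq models of BDNF were.

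The sequence around the start sites also differed between the groups. In windows from 250 bases before to 50 bases after each start, the GC content was 72.7% at exon VI, with 38 CG pairs, and 65.7% at exon VII. It was 55% at exon I, 54.3% at Vh, 50% at III, 49.7% at IV, 47% at II, 45.3% at V and 41.3% at IX. Over the 30149 start groups of the file the median was 59.3%, with quartiles of 48.7% and 68.3%. Exon VI was thus above the upper quartile and II, V and IX below the lower. Exon II also carried the core of an RE1 element, the site bound by the repressor REST, which silences neuronal genes in other cells and whose absence is known in beta cells. The search used the letters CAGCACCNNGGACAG on both strands of each first exon. The match lay on the gene's strand at 27742227 to 27742241, 85 bases after the group's start and in all 3 exon II models. The same letters were found in 35 of 32610 distinct first exons of the file (0.107%). The match stands in capitals within chr11:27742220-27742248. It is a match of letters and no measurement of binding.
exon II RE1 core: gtccattCAGCACCTTGGACAGagccaac

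Few genes had as many starts. The median gene name had 1 start group, 15.2% of 25183 names on the main chromosomes had at least 2, and 3 names, or 0.0119%, had at least 9. Those 3, looked up after the counts were seen, were BDNF and GHR, the growth hormone receptor gene, with 9 each and REXO1L2P, a pseudogene, with 10. By number of models BDNF was less unusual, since 42 names had more than its 18. Among the other members NTRK2 had 3 start groups, BDNF-AS 1 and NTRK3 1.

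**Figure D3:**
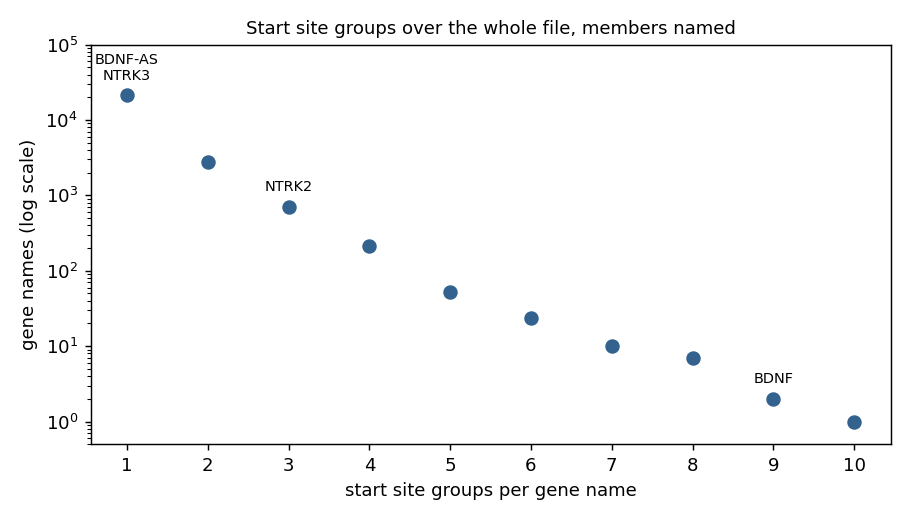
Number of gene names in the file (log scale) with each number of start site groups. BDNF is 1 of 2 names with 9 groups, NTRK2 1 of 712 with 3, and BDNF-AS and NTRK3 are among the 21352 with 1.

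BDNF-AS, a long non-coding RNA gene on the plus strand of chromosome 11, ran from 27528399 to 27719718, a span of 191320 bases. It had 9 models, 5 RefSeq and 4 joined, with 1 start group and no protein tag. The models had 6 to 10 exons and 1279 to 2385 spliced bases, and their longest ATG frames were 52 to 91 codons. The start stood 72 bases from that of LIN7C, a gene for a scaffold protein of cell junctions, at 27528326 on the other strand, so that the pair is transcribed apart from a common interval. Its start window had a GC content of 65%.

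All 9 BDNF-AS models shared 5 exons of 47, 97, 161, 222 and 58 bases, 585 bases in all. The rest was optional. An exon of 69 bases was present in 5 models, a pair of overlapping exons of 844 and 564 bases in 2 models each, an exon of 158 bases in 3, and an exon of 35 bases in 2. The models ended in either of 2 last exons, one of 822 bases to 27699350 (4 models) and one of 694 bases to 27719718 (5 models). The joined models were divided evenly, 2 with each end. Genes with at least 2 last exons that do not overlap made up 7.7% of names. Of the 4 joined chains, 3 were in GENCODE, as were all 5 RefSeq chains. The exception, the longest model with 2385 bases and 10 exons, put together the 844-base exon, the 35-base exon and the distal end.

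The antisense gene crossed the coding part of BDNF. In all, 280 exon bases were shared by the strands, in 2 pieces. The larger, 222 bases from 27679788 to 27680009, is an exon present in all 9 BDNF-AS models and lay wholly inside the BDNF reading frame of all 18 BDNF models, beginning at base 103 of the frame and taking up 29.8% of it. The smaller, 58 bases from 27680718 to 27680775, is the next BDNF-AS exon and met an exon of only 2 BDNF models, those starting at 27681196. Of the 162 pairs of a BDNF and a BDNF-AS model, 144 shared 222 bases and 18 shared 280. No pair was free of overlap, so the antisense piece is common to every choice of BDNF promoter. Exon overlap with a gene on the other strand was found for 12.8% of names. The sources used here do not state whether the counting kept the strand. Whether reads within these 280 bases could be assigned to BDNF or BDNF-AS is therefore unknown here.

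The BDNF promoters were on the whole outside the antisense gene. The spans of the genes overlapped by 43277 bases, 64.4% of BDNF. Only 1 of the 9 BDNF start groups, the group named IX, started inside BDNF-AS. The distal BDNF-AS end stopped 1210 bases short of exon VII. BDNF-AS also overlapped LINC00678, a non-coding RNA gene, and MIR8087, a microRNA gene, both on the other strand. The nearest name beyond BDNF was KIF18A, a kinesin motor gene, 298557 bases away.

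NTRK2, the TrkB gene, lay on the plus strand of chromosome 9 from 87283373 to 87641985, a span of 358613 bases. It had 10 models, 6 RefSeq and 4 joined, with 3 start groups, 3 last exons that do not overlap and 6 protein tags. In contrast to BDNF, whose models all ended in the same last exon, NTRK2 models also varied at the 3′ end. The 10 exons common to all models gave 1462 bases, against 7144 to 9181 bases in whole models. The gene overlapped no other name, and the nearest were SLC28A3, a nucleoside transporter gene, 299959 bases away, and AGTPBP1, a carboxypeptidase gene, 519468 bases away.

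The 3 last exons correspond to 3 kinds of receptor. The T1 form, truncated after the membrane-spanning segment, ended in a last exon of 5167 bases from 87425457 in 3 models. The T-Shc form, which keeps the Shc adaptor site but lacks the kinase, ended in an exon of 6110 bases from 87486704 in 4 models. The kinase form ran on through exons of 131, 173, 235 and 159 bases to a last exon of 5819 bases from 87636167 in 3 models. The codons that the truncated ends add are few, and they are printed whole, with the stop codon in capitals, to show where the kinase is replaced. They are read from GRCh37, plus strand, at chr9:87425457-87425494 for T1 and chr9:87486704-87486732 for T-Shc.
NTRK2 T1 tail: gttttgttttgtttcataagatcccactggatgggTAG
NTRK2 T-Shc tail: ggcccagaggttcccccaagaccgccTGA

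The T1 form had 1396 coding bases before its own end, which added 38 with the stop, or 11 whole codons. The T-Shc form added 29 bases, or 8 whole codons, to 1633, and the kinase form 884 bases, or 293 whole codons, to the same 1633. The difference between T1 and the others before their ends comes from an exon of 189 bases, present in 7 of 10 models and in none with the T1 end, and a 48-base exon. The latter, at 87475955 to 87476002, was in 3 of 10 models, 1 with the kinase end and 2 with the T-Shc end, and changes the frame by 16 codons. Kinase models had 838 codons with it and 822 without, and T-Shc models 553 and 537. The exon of 306 bases upstream of these had a second acceptor 39 bases downstream, which shortened it to 267 bases in 1 model with the T1 end, and gave 464 codons in place of 477. Both choices keep the reading frame. They stand in capitals below, with 10 neighbouring bases on each side, at chr9:87475945-87476012 and chr9:87342559-87342617, plus strand.
NTRK2 48-base exon: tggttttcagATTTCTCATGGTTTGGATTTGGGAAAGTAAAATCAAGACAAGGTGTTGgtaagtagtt
NTRK2 39 bases: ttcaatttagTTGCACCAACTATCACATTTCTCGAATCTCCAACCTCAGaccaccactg

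At the 5′ end, 6 models began at 87283373 with leader exons of 328 and 122 bases, 3 at 87284595 and 1 at 87285292. All 10 frames opened at the same ATG, at 87285664, so that the start changed only the sequence before the frame: 1031 bases from the outer start, 581 from the middle and 372 from the inner. The outer start was used by 2 RefSeq models, a kinase form and a T1 form, and by all 4 joined models. Each joined model was the intron chain of a RefSeq model with exons added upstream: 3 gained 2 exons and 450 bases, and 1 gained 3 exons and 659 bases. The 4 RefSeq models so extended are the ones the file tags as contained in them. With the joined models, all 3 ends were found with the outer start and the 48-base exon was both present and absent there. All 4 joined chains were in GENCODE, against 2 of the 6 RefSeq chains. The GC content of the start windows was 69.7% at the outer start, 57% at the middle and 62.3% at the inner.

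**Figure D4:**
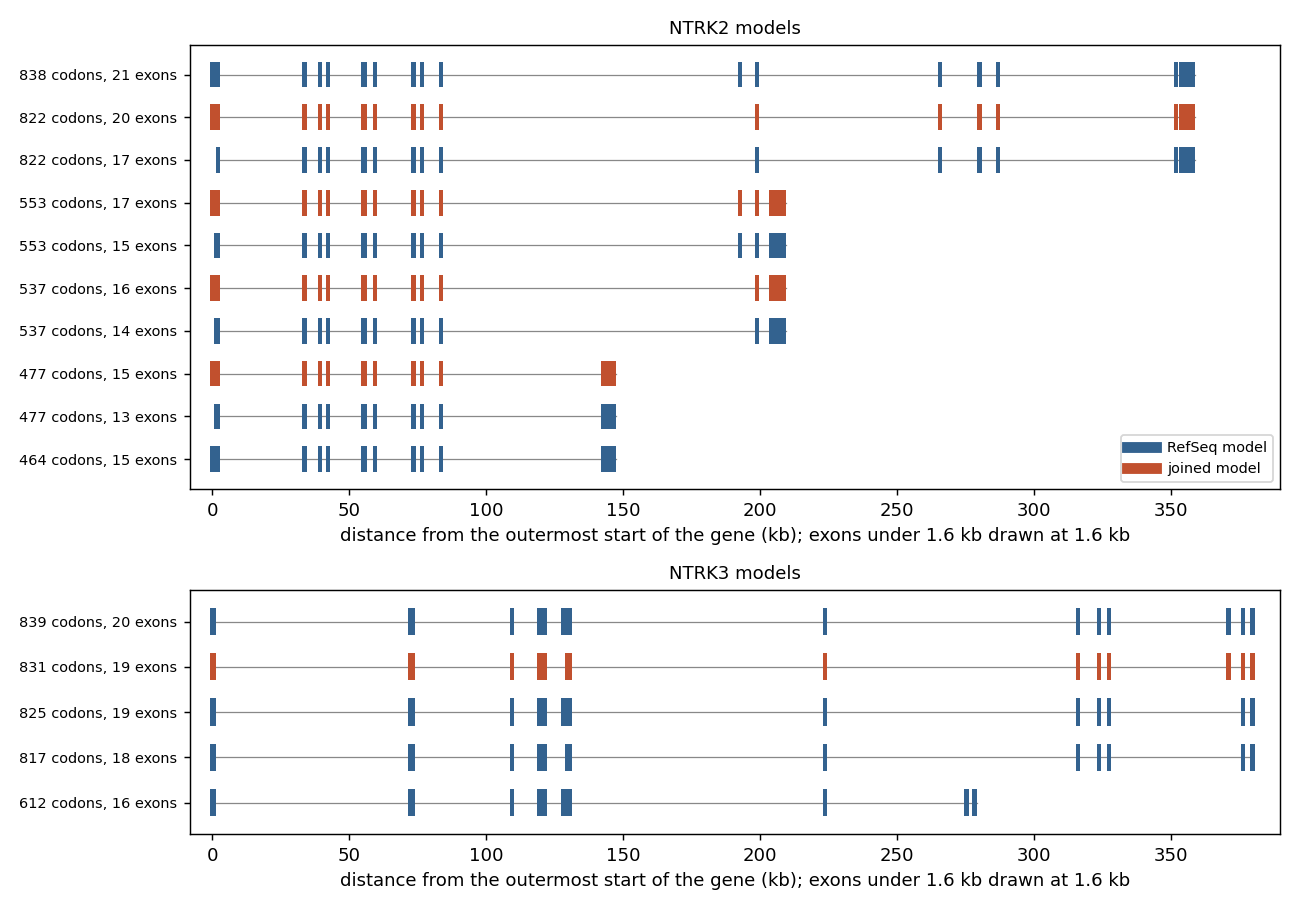
Exons of the 10 NTRK2 and 5 NTRK3 models, as distance in kb from the outermost start of each gene, labelled by frame length in codons and number of exons. Blue models are RefSeq models and red ones joined. NTRK2 models stop at 3 places and NTRK3 models at 2.

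NTRK3, the TrkC gene, lay on the minus strand of chromosome 15 from 88419988 to 88799962, a span of 379975 bases. It had 5 models, 4 RefSeq and 1 joined, with 1 start group, 2 last exons and 4 protein tags. The 13 exons common to all models gave 1867 bases of the 2938 to 4125 in whole models. Its start window had a GC content of 71.7%. The kinase end, a last exon of 364 bases, was in 4 models. The truncated end, reached through an exon of 135 bases to a last exon of 2099 bases, was in 1 model of 612 codons. Before the ends both forms had 1585 coding bases with the 24-base exon described next. The truncated form added 254 bases, or 83 whole codons, and the kinase form 893 bases, or 296.

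A short exon of 24 bases at 88671942 to 88671965 was in 3 of 5 NTRK3 models, the truncated one among them. It adds 8 codons ahead of the membrane-spanning segment and keeps the reading frame. Of the 4 kinase models, a RefSeq pair that differed in this exon alone had frames of 817 codons without it and 825 with it. The others differed from this pair outside the 24-base exon as well. They were a RefSeq model with the exon, of 839 codons, and the joined model without it, of 831. Its chain was in GENCODE, as were 3 of the 4 RefSeq chains. The exon is printed in capitals with 10 bases of intron on each side, minus strand, from chr15:88671932-88671975. The coding part of the truncated end in its last exon, with the stop codon in capitals, is at chr15:88522576-88522694.
NTRK3 24-base exon: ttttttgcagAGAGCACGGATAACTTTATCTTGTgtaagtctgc
NTRK3 truncated tail: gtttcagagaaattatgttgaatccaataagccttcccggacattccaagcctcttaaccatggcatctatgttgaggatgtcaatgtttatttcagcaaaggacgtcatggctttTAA

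Of the 18 distinct introns of BDNF, 14 of BDNF-AS, 24 of NTRK2 and 23 of NTRK3, 1 did not begin with GT. It was the NTRK3 intron from 88799400 to 88799514 (115 bases), in all 5 models, and it begins with GC and ends with AG. The share of such introns over the whole file was not counted, so how rare they are is not given here. The GC stands in capitals within chr15:88799505-88799524, minus strand.
NTRK3 GC donor: cgtttcaaagGCagaggccc

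NTRK3 was also overlapped by an antisense gene, NTRK3-AS1, a long non-coding RNA gene with 1 model. The spans overlapped by 4002 bases and the exons by 0, and the first exon of NTRK3-AS1 was 2427 bases from the nearest NTRK3 exon. The pair thus overlapped at its 5′ ends without shared exon bases, whereas that of BDNF shared coding sequence. The next names were LINC00052, a non-coding RNA gene, 297070 bases away, and MRPL46, a gene for a mitochondrial ribosome protein, 202746 bases away.

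The coding exons of the kinase forms of NTRK2 and NTRK3 were aligned in order, leaving out exons with no counterpart in the other gene, such as the 48-base exon of NTRK2. Each had 17 coding exons, and the position within the codon at which an exon ends was the same in both genes throughout. The coding part of exon 17 ends with the stop codon, so that position could not have differed. The coding lengths were equal for 8 exons, of 75, 72, 69, 189, 131, 173, 159 and 186 bases. The largest relative differences were in adjacent exons, the ninth with 36 bases in NTRK2 and 24 in NTRK3 and the tenth with 101 and 65. The ninth is the 24-base exon that some NTRK3 models lack, while its 36-base counterpart was in all 10 models of NTRK2.

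**Figure D5:**
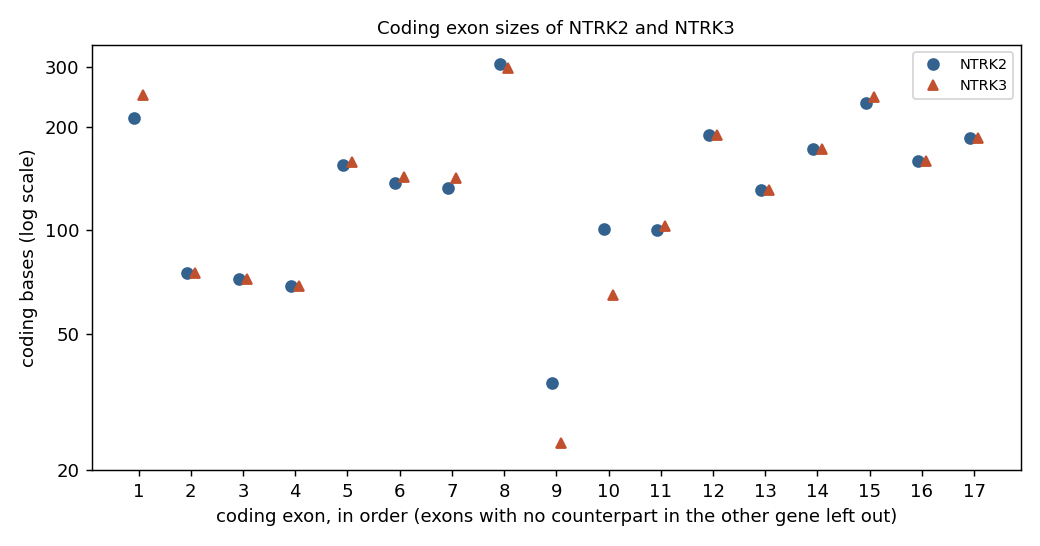
Coding bases (log scale) of the 17 aligned coding exons of NTRK2 (circles) and NTRK3 (triangles). The genes are equal at exons 2 to 4, 12 to 14, 16 and 17 and lie farthest apart at exon 9, with 36 and 24 bases, and exon 10, with 101 and 65.

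Skipped inner exons, those within an intron of another model of the gene, numbered 7 over the coding genes BDNF, NTRK2 and NTRK3. Of these, 5 had a length divisible by 3. Where the flanking exons stay the same, such a length leaves the phase of the next codon unchanged. Among the 5 were the 48-base exon of NTRK2, the 24-base exon of NTRK3 and exon VIIIh of BDNF with 117 bases. Another was the 135-base exon of NTRK3, which was found only with the truncated end. The exceptions, of 107 and 283 bases, were in BDNF, whose 3 skipped exons all lie upstream of the shared start codon. Over the coding genes of the file 51.3% of 11751 skipped inner exons had such a length. Of the 10 joined models 8 had their chain in GENCODE, against 6.82% of the 4940 joined models that could be compared. Of the 31 spliced RefSeq models of the 4 genes 25 did, against 88% of RefSeq models. GENCODE lists 55 transcripts of BDNF-AS, 58 of NTRK2 and 19 of NTRK3, against 9, 10 and 5 models in the file, and 17 of BDNF against 18.

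A list of 47 neurotrophin pathway genes, with ligands, receptors, adaptors and processing enzymes, gives the setting. Besides BDNF, NTRK2 and NTRK3, which are on it, it had 44 genes. Of these, 6 had a joined model, among them SORT1, which encodes the sortilin receptor of neurotrophin precursors, ARHGDIA, PCSK5 and PCSK6, proprotein convertases, with 1 each, and SH2B1, an adaptor of receptor kinases, with 2. At least 2 start groups were found for 14, with 3 as the highest number, at least 2 last exons for 5, at least 4 protein tags for 3 and antisense exon overlap for 4. The median was 2 models per gene, with or without the 3 members on the list.

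The ligand genes NTF3 and NTF4 were simple beside BDNF. NTF4, the gene of neurotrophin 4, had 1 model with a frame of 210 codons. NTF3, that of neurotrophin 3, had 2 models with 2 starts, of 257 and 270 codons. Both lacked a joined model. Among receptors SORT1 had 3 models and SORCS1, a relative of sortilin, 6, and NGFR, which encodes p75, SORCS2 and SORCS3 had 1 each. NTRK2, with 10, had the most models of any receptor on the list, and BDNF, with 18, of any gene on it.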

How the data were processed

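The authors deposited a single merged transcript file for the 6 libraries, with exon positions in bases and name tags of the kind Cuffmerge writes, per the file headers and tags. The submitters' processing notes name TopHat2, Cufflinks and the build hg19 and give no versions. How the assembly was set and filtered is not given in the sources used, and depth is unknown. Exon lines were grouped into models with Python 3.11.15 and pysam 0.24.0, and drawn with matplotlib 3.10.9. Frames are the longest from ATG to stop on the spliced GRCh37 sequence. A model was called present in GENCODE (release 44, on GRCh37 coordinates) where a transcript there had every intron identical. Start groups follow tss_id, and last exons overlapping by at least 1 base were counted once. The functions for reading frames and for interval overlap were tested on made-up sequences and intervals, and the other steps were not. All models of the 4 genes are accounted for. Of the pathway list, other ligands, receptors and genes with a joined model are named, with neighbours that overlap or lie nearest. Some items of the list and loci are not reported here. The genes and lists were chosen with earlier results of these data known.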

Additional observations from a re-analysis of the deposited data

How the results depend on the processing

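Of 22 alternatives over 11 results, 20 left the value within 1.5 times of that reported. Those for the model counts kept only main chromosomes, or only models of at least 500 spliced bases. They could not change a count, because all models lay on chromosomes 9, 11 and 15 and the shortest had 1279 spliced bases. Their agreement is therefore no sign of robustness. Counting BDNF first exons by distinct start and end, in place of start tags, gave 14 in place of 9. Using genomic spans in place of exons raised the overlap of BDNF and BDNF-AS from 280 to 43277 bases. Models ending in the shared exon fell from 18 to 16 when identical limits were required. No paired analysis was possible because this assembly carries no value per library, and leaving out replicates could not be run for the same reason. RefSeq models stand in the file whatever the reads, frames are predictions, and depth behind a joined model is unknown.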
